A study of Mus musculus with 7 samples.

Results

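The circadian clock genes were followed in mouse left lung after deletion of Gata5, which encodes a DNA-binding regulator of the GATA type. The set holds 10 genes: the activators Clock and Npas2, the repressors Per1, Per2, Per3, Cry1, Cry2, Nr1d1 and Nr1d2, and the output factor Dbp. A probe set, the group of short probes that reads 1 transcript, was taken when its only gene symbol in the platform annotation was one of these names. This gave 23 of 45037 probe sets, and 10 of 18193 named genes. The mice were 8 weeks old, and each mouse gave 1 lung and 1 Affymetrix array. The knockout (KO) group had 3 mice labelled as Gata5 KO and the control group had 4 wild-type (WT) mice. Neither the strain, nor the deleted part of the Gata5 allele, nor the hour of lung collection is stated in the labels.

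In the cell clock, CLOCK or its paralogue NPAS2 pairs with BMAL1, the product of Arntl, and switches on genes that carry E-box sequences. Among these genes are the Per and Cry repressors, which enter the nucleus and block the same pair, and Nr1d1 and Nr1d2, which encode the REV-ERB receptors that repress Arntl, Clock and Npas2. Dbp is another target and binds D-box sequences, such as those near Per genes. Levels of these RNAs therefore rise and fall through the day in lung as in most tissues, with the activators Arntl and Npas2 opposite in phase to Dbp and the Per genes.

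Promoters of 4 repressors are shown, with matches to sequence motifs of the clock loop. They were chosen because these genes gave a group difference past the threshold (Cry2), the widest spread within KO mice among genes with a promoter entry (Per3 and Cry1), or a change just outside the threshold beside an E-box (Per1). Each run is 300 bases from the RefSeq promoter table of GRCm38.p6, from 250 bases before to 50 after the annotated start, 5′ to 3′ on the gene's strand. Capitals mark every match to the motifs searched on either strand. A second Per1 entry, chr11:69099902-69100201, held no match and is not shown. Nr1d1 lay nearer the threshold than Per1, but its window held CACGTT on the other strand and no E-box, and is not shown. Clock, an activator, also passed the threshold and is not shown. Of its entries only chr5:76303453-76303752 held a match, AGGTCA on the opposite strand.
Per1, chr11:69098699-69098998, plus strand: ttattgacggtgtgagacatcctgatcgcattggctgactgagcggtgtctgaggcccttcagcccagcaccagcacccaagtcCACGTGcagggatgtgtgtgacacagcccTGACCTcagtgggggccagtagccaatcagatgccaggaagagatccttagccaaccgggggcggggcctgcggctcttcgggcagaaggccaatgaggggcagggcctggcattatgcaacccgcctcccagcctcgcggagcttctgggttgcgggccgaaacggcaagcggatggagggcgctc
Per3, chr4:151044616-151044915, minus strand: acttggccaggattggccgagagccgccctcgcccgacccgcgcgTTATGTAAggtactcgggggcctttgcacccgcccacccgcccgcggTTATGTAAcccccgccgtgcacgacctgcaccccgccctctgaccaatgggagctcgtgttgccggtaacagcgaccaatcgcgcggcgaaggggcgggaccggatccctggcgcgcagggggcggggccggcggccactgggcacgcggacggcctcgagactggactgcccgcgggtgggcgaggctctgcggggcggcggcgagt
Cry1, chr10:85185005-85185304, minus strand: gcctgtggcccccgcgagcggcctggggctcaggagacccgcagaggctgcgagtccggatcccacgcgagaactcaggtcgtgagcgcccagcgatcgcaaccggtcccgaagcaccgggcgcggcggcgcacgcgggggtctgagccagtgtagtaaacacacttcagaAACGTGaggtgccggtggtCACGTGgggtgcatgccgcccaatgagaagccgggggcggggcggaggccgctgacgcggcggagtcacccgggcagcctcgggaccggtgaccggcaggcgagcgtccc
Cry2, chr2:92434020-92434319, minus strand: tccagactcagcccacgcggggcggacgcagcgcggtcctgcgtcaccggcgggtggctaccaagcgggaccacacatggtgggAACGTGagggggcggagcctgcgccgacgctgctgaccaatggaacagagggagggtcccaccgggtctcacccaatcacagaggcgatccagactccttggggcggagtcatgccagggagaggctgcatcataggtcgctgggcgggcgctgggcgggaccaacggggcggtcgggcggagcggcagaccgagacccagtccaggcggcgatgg
In Per1 the capitals are an E-box, CACGTG, 166 bases before the start, and AGGTCA, the core of the element bound by ROR and REV-ERB receptors, on the opposite strand. The Per3 window held 2 D-boxes, TTATGTAA, which were in 0.938% of the 32851 promoters of the table. Cry1 held an E-box and the related letters CACGTT, read on the other strand, while Cry2 held CACGTT alone. Over the 12 promoter entries found for 9 of the genes, an E-box was present in 2, CACGTT in 3, a D-box in 1 and AGGTCA in 3. Across the whole table the shares were 7.15% for CACGTG, 4.68% for CACGTT and 16.3% for AGGTCA. The GATA letters AGATAA and TGATAA were in none of the 12 windows, against 11.2% and 9.05% of all promoters. These matches describe the letters in the windows and are not measured binding sites.

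Values are log2 levels as deposited, so a difference of 1 is 2-fold, and levels of different probe sets are not compared with each other. Lung markers were bright on all arrays: 8 of 8 lay above the level filter of 5.47, and the surfactant gene Sftpc stood between 14.00 and 14.20. Of the lung markers, only the endothelial Pecam1 passed the threshold, from 8.57 ± 0.24 (SD, n = 4) on WT arrays to 7.36 ± 0.30 (SD, n = 3) on KO arrays (limma adjusted p = 0.00679). Sftpb (-0.74, adjusted p = 0.0687) and Sftpc (-0.12, adjusted p = 0.158) were lower on every KO array than on every WT array without passing. The endothelial Cldn5 changed by -0.42 (adjusted p = 0.0599), with groups that overlapped. On the log2 scale of levels summed over each list, lung markers ran from 16.10 to 16.17 in KO and from 16.17 to 16.28 in WT, without overlap. Heart muscle markers were also detected, 4 of 4 above the filter, with summed levels of 13.40 to 13.91 in KO and 13.17 to 14.06 in WT, so the groups overlapped. Adipose, skeletal muscle and liver markers had 1 of 3 above the filter each, and thymus markers 0 of 3. Their summed levels overlapped too, for adipose from 6.54 to 7.22 in KO and 6.87 to 8.10 in WT, and likewise 6.81 to 6.91 and 6.71 to 7.14 for skeletal muscle, 6.62 to 6.77 and 6.53 to 6.65 for thymus, and 7.20 to 7.56 and 6.52 to 7.45 for liver. The part of other cell types in the clock results was not tested. In whole lung, fewer cells of a type and less RNA per cell cannot be told apart. One array, WT replicate 4, had a high level of the female-specific RNA Xist, 12.72 against 6.31 to 6.48 elsewhere. For beta-actin, the 3′ minus 5′ control difference, a measure of RNA quality, was 4.74, 5.39 and 4.76 on KO arrays 1, 2 and 3 and 4.31, 3.88, 4.27 and 3.94 on WT arrays 1 to 4, without overlap. The 3′ minus middle difference, 2.84 to 3.34 on KO arrays and 2.23 to 2.56 on WT arrays, did not overlap either. The part of RNA quality in the clock results was examined only with these differences as covariates. As both separated the groups, RNA quality and genotype cannot be told apart in such a fit, and a call lost there does not decide between them. Gata5 itself was lower at probe set 1450126_at, with a KO mean of 4.95 ± 0.22 (SD, n = 3) and a WT mean of 5.54 ± 0.22 (SD, n = 4) and no overlap (limma adjusted p = 0.0336 over all probe sets), although its mean over the arrays lay under the level filter. The second Gata5 probe set, 1450125_at, missed the threshold at a log2 change of -0.26 (adjusted p = 0.0993).

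Clock and Cry2 fell in KO lungs, and no clock gene rose. The other 7 genes tested did not pass at an adjusted p of 0.05, and Npas2 lay under the level filter. These are 2 of 9 tested, against 15.6% called in either direction among all 13285 genes tested, of which 1331 fell and 738 rose. The same 2 of 9 clock genes had groups that did not overlap, against 29.6% of all genes. The count of calls is thus near the background of these arrays. Without KO replicate 1, which stood apart in these genes, 2 of 9 passed, Clock and Nr1d1, both lower, and Cry2 did not (adjusted p = 0.0714). Over all genes, 1603 of 13279 passed in that setting. With all arrays, 8 of the 9 tested had a negative log2 change, against 6754 of 13285 genes. The median was -0.41 against -0.00 over all genes. Without KO replicate 1 the changes of Per2, Per3 and Cry1 turned positive (0.39, 0.27 and 0.25), and that of Dbp stayed so (0.38). Adjusted p-values here come from lmFit and eBayes in limma, over all genes tested.

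**Figure D1:**
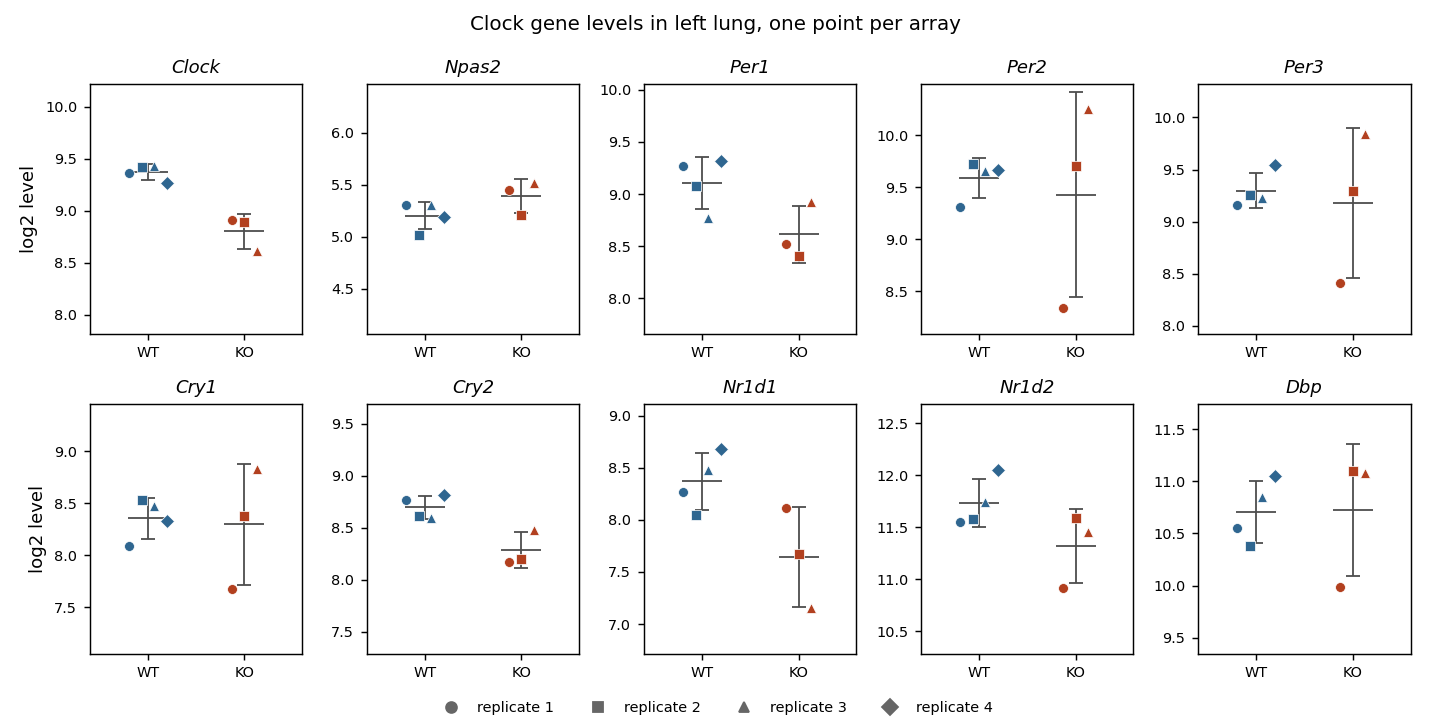
Log2 level of the 10 clock genes, each at its brightest probe set, in 4 WT and 3 KO left lungs. Points are arrays with the marker shape giving the replicate number, horizontal bars are group means, whiskers are 1 SD, and every panel spans the same 2.4 log2 units. The Clock and Cry2 groups do not overlap, while KO replicate 1 lies far below the other KO arrays for Per2, Per3, Cry1 and Dbp.

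The activator Clock encodes the DNA-binding partner of BMAL1. At probe set 1418659_at it read 8.91, 8.89 and 8.61 on the KO arrays and 9.36, 9.42, 9.43 and 9.27 on the WT arrays. Every KO array lay below every WT array, and KO replicate 3 was the lowest. The mean level was 9.37 ± 0.07 (SD, n = 4) in WT lungs and 8.80 ± 0.17 (SD, n = 3) in KO lungs, 1.48-fold lower, a log2 change of -0.57 with a 95% interval of -0.76 to -0.37 (adjusted p = 0.00810). The call passed without any one of the 7 arrays, but it was lost in the mean over all Clock probe sets (-0.19, adjusted p = 0.180), with the beta-actin 3′ to 5′ (-0.70, adjusted p = 0.218) or 3′ to middle (-0.36, adjusted p = 0.398) difference as a covariate, and among the 5 mice with the lowest numbers (-0.59, adjusted p = 0.0811).

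The other Clock probe sets did not pass. Probe set 1418660_at, which the annotation assigns to the same source sequence as 1418659_at, read 8.82, 8.58 and 8.17 in KO and 8.74, 8.52, 8.58 and 8.64 in WT, with a log2 change of -0.10 (95% interval -0.41 to 0.22). There the first KO replicate was the highest of the 7 arrays and the third the lowest. At 1435775_at the change was 0.05 (-0.21 to 0.32) and at 1439314_at it was -0.15 (-0.36 to 0.07). The decrease of Clock thus rests on 1 of 4 probe sets, and the difference between probe sets was not tested.

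Npas2, the paralogue that can replace CLOCK, was dim. Its brighter probe set, 1421036_at, read 5.45, 5.21 and 5.52 in KO and 5.30, 5.02, 5.30 and 5.19 in WT, which overlap. The log2 change was 0.19 (95% interval -0.03 to 0.41, adjusted p = 0.214 in the fit without a filter). At 1421037_at KO replicate 1 stood at 5.51, whereas the other 6 arrays lay between 4.01 and 4.52. The change there was 0.49 (-0.10 to 1.09), and it was 0.14 without KO replicate 1.

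Per1, Per2 and Per3 encode the PERIOD proteins, which hold the cryptochromes in the repressor complex. Per1 read 8.52, 8.40 and 8.92 in KO and 9.27, 9.08, 8.77 and 9.32 in WT. KO replicate 3 lay above WT replicate 3, so the groups overlapped. The log2 change was -0.50 (95% interval -0.86 to -0.13) and missed the threshold (adjusted p = 0.0678). It passed when KO replicate 3 was left out (-0.65, adjusted p = 0.0468) or when WT replicate 3 was (-0.61, adjusted p = 0.0406).

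Per2 had the widest spread of the set. It read 8.34, 9.70 and 10.25 on the KO arrays and 9.31, 9.72, 9.66 and 9.67 on the WT arrays. The lowest of all was KO replicate 1 and the highest KO replicate 3, a KO range of 1.91 against a WT range of 0.41. The change was -0.16, with an interval of -1.02 to 0.70 (adjusted p = 0.783). Without KO replicate 1 it was 0.39 (adjusted p = 0.182), so the sign turned on that array. The second probe set, 1457350_at, had the same order of the KO arrays, at 7.02, 8.12 and 8.53 in KO and 7.73, 7.99, 8.04 and 8.19 in WT. The third, 1417603_at, lay under the filter and read 4.91 on 5 of the 7 arrays and 4.73 and 4.97 on the rest.

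Per3 was read by 6 probe sets, of which 4 were above the filter. At the brightest, 1421087_at, the KO arrays stood at 8.41, 9.29 and 9.84 and the WT arrays at 9.16, 9.26, 9.23 and 9.54. Again KO replicate 1 was the lowest and KO replicate 3 the highest of all 7. The change was -0.12 (95% interval -0.76 to 0.53, adjusted p = 0.788). The 3 other bright probe sets had KO replicate 1 as the lowest KO array too: 7.91 against 8.67 and 8.57 at 1458176_at, 8.18 against 8.68 and 8.89 at 1441445_at, and 8.83 against 9.55 and 9.57 at 1442243_at. Their log2 changes were -0.18, 0.17 and 0.40. Only 1442243_at moved past the threshold when KO replicate 1 was left out, at 0.64 (limma adjusted p = 0.0137 over all probe sets). The dim probe sets 1421086_at and 1460662_at changed by 0.14 and 0.05.

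The cryptochromes Cry1 and Cry2 encode the repressors that bind the CLOCK and BMAL1 pair directly. Cry2 read 8.17, 8.20 and 8.48 in KO and 8.77, 8.61, 8.59 and 8.81 in WT, so that all KO arrays were below all WT arrays. The WT mean was 8.69 ± 0.11 (SD, n = 4) and the KO mean 8.28 ± 0.17 (SD, n = 3), 1.33-fold lower, a log2 change of -0.41 with an interval of -0.63 to -0.19 (adjusted p = 0.0262). Leaving out KO replicate 1 or 2, or WT replicate 1 or 4, ended the call, at -0.39 to -0.35 and adjusted p of 0.0635 to 0.0714. It was also lost with a beta-actin covariate (3′ to 5′, -0.30, adjusted p = 0.463, or 3′ to middle, -0.64, adjusted p = 0.251), with Xist (-0.38, adjusted p = 0.0673), and among the 5 mice with the lowest numbers (-0.41, adjusted p = 0.140). With replicate number as a fixed block on replicates 1 to 3, the change was -0.37 and did not pass either (adjusted p = 0.107).

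Cry1 read 7.68, 8.38 and 8.83 in KO and 8.09, 8.53, 8.47 and 8.33 in WT. As with Per2 and Per3, KO replicate 1 was the lowest and KO replicate 3 the highest of the 7 arrays. The change was -0.06 (95% interval -0.60 to 0.49, adjusted p = 0.877), and 0.25 without KO replicate 1. Whether the changes of Cry1 and Cry2 differ was not tested.

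Nr1d1 and Nr1d2 encode REV-ERB alpha and REV-ERB beta, nuclear receptors that repress the activators. Nr1d1 read 8.11, 7.67 and 7.15 in KO and 8.27, 8.05, 8.48 and 8.68 in WT. KO replicate 3 was the lowest, and KO replicate 1 lay above WT replicate 2. The log2 change, -0.73, was the largest decrease of the set, with an interval of -1.23 to -0.22, and did not pass (adjusted p = 0.0586). It passed without KO replicate 1 (-0.96, adjusted p = 0.0283) and with the Gapdh 3′ to 5′ difference as a covariate (-0.61, adjusted p = 0.0211), but was 0.24 when the 3′ minus middle difference of beta-actin was a covariate (adjusted p = 0.688).

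Nr1d2 read 10.92, 11.59 and 11.45 in KO and 11.55, 11.58, 11.74 and 12.05 in WT. The lowest of the 7 was KO replicate 1 and the highest WT replicate 4. The change of -0.41 (95% interval -0.81 to -0.01) had an adjusted p of 0.136, and it was -0.21 without KO replicate 1. A dim second probe set, 1416959_at, changed by 0.04.

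Dbp, a PAR bZIP activator and one of the most strongly cycling output genes, was measured by a pair of probe sets with different means. At 1438211_s_at it read 9.99, 11.10 and 11.08 in KO and 10.55, 10.38, 10.85 and 11.05 in WT. The lowest array was KO replicate 1, and the other KO arrays were above every WT array. The change was 0.02 (95% interval -0.62 to 0.65, adjusted p = 0.973). It was 0.38 when KO replicate 1 was left out (adjusted p = 0.192). At 1418174_at the KO arrays read 7.31, 8.09 and 8.09 and the WT arrays 8.09, 7.95, 8.28 and 8.81, a change of -0.45 (-1.01 to 0.11). The lowest array was again KO replicate 1.

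Counted by probe set, 2 of 23 passed, both lower in KO, against 9.89% of all 45037 probe sets, or 6.37% for decreases. The 2 were 1418659_at of Clock and 1426383_at of Cry2. Over the other settings of this fit, 1418659_at passed in 17 and missed in 3, while 1426383_at passed in 7 and missed in 13. Groups did not overlap at 2 of 23, against 23.4% of all probe sets. Log2 changes ran from -0.73 to 0.49, with 14 negative and 9 positive, a median of -0.10 against 0.04 over all probe sets. Of the 23, 17 lay above the level filter and 6 below it. Clock, Npas2, Per2, Per3, Nr1d2 and Dbp had more than 1 probe set, and the sign of the change differed between probe sets in Clock, Per3, Nr1d2 and Dbp.

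**Figure D2:**
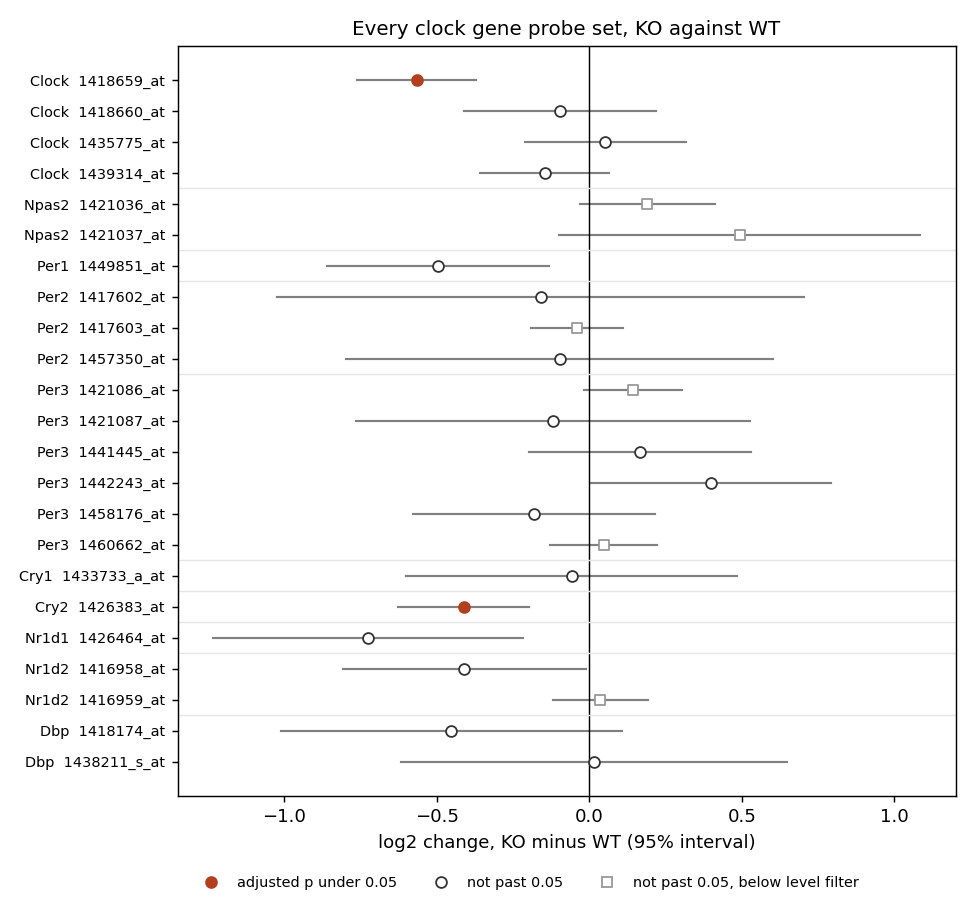
Log2 change of KO minus WT for the 23 clock gene probe sets, with 95% intervals from limma, ordered by gene. Filled points passed an adjusted p of 0.05 over all 45037 probe sets, open circles did not, and squares mark probe sets below the level filter of 5.47. Only 1418659_at of Clock and 1426383_at of Cry2 are filled, and the intervals of 1417602_at and 1457350_at of Per2 are among the widest.

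The KO arrays were spread more widely than the WT arrays. Over the 9 tested clock genes the median range was 0.96 among KO arrays and 0.44 among WT arrays, whereas over all genes tested it was 0.22 and 0.20. Each array was then set against the mean of the other arrays of its group, a comparison chosen after the values were seen. KO replicate 1 differed by more than 0.5 for 6 of 9 clock genes (66.7%), against 2.28% of all 13285 genes. KO replicate 3 did so for 5 of 9 (55.6%), against 2.54%, in a comparison that includes KO replicate 1. KO replicate 2 did so for 1 of 9, and the 4 WT arrays for 0 of 9 each. As the members are not independent of each other, no test was made on these shares.

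The deviations ran in both directions. Relative to the mean of the other KO arrays, KO replicate 1 had log2 differences of -1.635 for Per2, -1.155 for Per3, -1.10 for Dbp, -0.925 for Cry1 and -0.60 for Nr1d2. The difference was 0.70 for Nr1d1, while Clock (0.16), Per1 (-0.14) and Cry2 (-0.17) were close to the mean. On KO replicate 3 it was 1.23 for Per2, 0.99 for Per3 and 0.80 for Cry1, and -0.74 for Nr1d1. The beta-actin 3′ to 5′ difference of KO replicate 1, 4.74, stood beside 5.39 and 4.76 on KO replicates 2 and 3. The 3′ to middle difference was 2.84 against 2.89 and 3.34, and that of Gapdh, 3′ to 5′, was 6.51 against 6.50 and 6.36. Some markers of other tissues were low on the same array: the heart gene Nppa read 7.65 against 9.27 and 8.99, and the fat cell gene Adipoq 5.36 against 6.61 and 6.58. Their WT ranges were 7.76 to 9.61 and 6.05 to 7.78. Nppa and Adipoq had the widest gaps of their marker lists. The other heart markers were also lowest of the KO arrays on KO replicate 1, by less, such as Myh6 at 12.35 against 12.66 and 12.52. Of the other adipose markers, which were dim, Ucp1 (4.41) lay between the other KO arrays and Cidec (4.93) was close to them. A low level of adipose markers on KO replicate 1 thus rests on Adipoq. Liver markers were not low there: Alb read 6.75 against 7.05 and 6.54. The dim Apoa1 (5.48 against 5.11 and 5.18) and Cyp3a11 (5.21 against 4.44 and 4.17) were the highest of the 7 arrays. The part of RNA quality and of these tissues in the clock deviation was not tested.

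**Figure D3:**
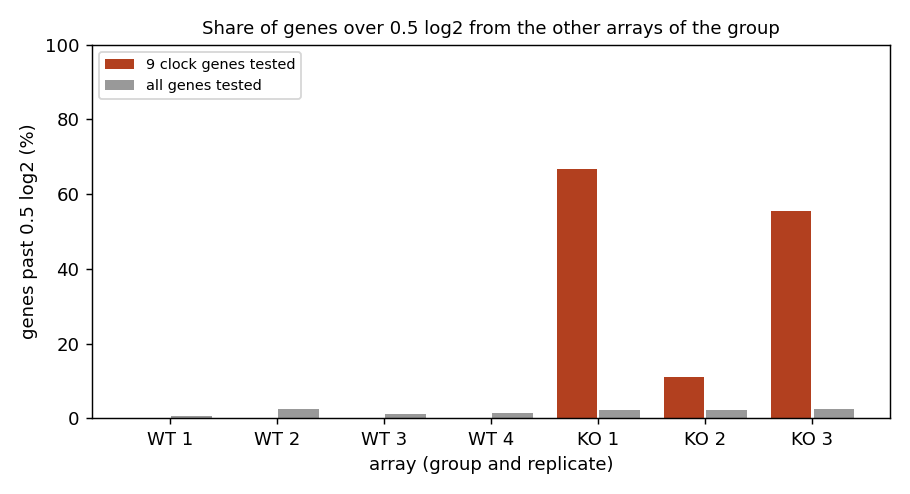
Percentage of genes whose log2 level lay more than 0.5 from the mean of the other arrays of the same group, for the 9 clock genes tested and for all 13285 genes, by array. The clock gene bars reach 66.7% on KO replicate 1 and 55.6% on KO replicate 3 and stand at 0 on the 4 WT arrays, whereas the bars of all genes stay at or under 2.54%.

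The activator group was compared with the repressors and Dbp by their mean log2 levels, each gene centred on its mean over the 7 arrays. The activators averaged -0.11 ± 0.07 (SD, n = 3) on KO arrays, against 0.08 ± 0.07 (SD, n = 4) on WT arrays. The repressors and Dbp averaged -0.17 ± 0.38 in KO and 0.13 ± 0.14 in WT, so both means were lower in KO at the brightest probe sets. The changes of the activators had opposite signs there, -0.57 for Clock and 0.19 for Npas2, which lay under the level filter. The signs were also opposite when each gene was averaged over its probe sets, -0.19 for Clock and 0.34 for Npas2. The difference between the 2 means, activators minus the rest, was 0.56, -0.09 and -0.29 on the KO arrays and 0.11, -0.03, 0.04 and -0.30 on the WT arrays. The highest was KO replicate 1, and the other arrays overlapped. The groups differed by 0.11 in this measure, less than the SD of 0.44 among KO arrays, by -0.14 without KO replicate 1, and by 0.34 with the mean of all probe sets. No p is given for a score over genes chosen with earlier results known.

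Other clock genes came from a list of 25, of which 22 were on the array and 19 above the filter. Of these, 2 fell, 0 rose and 17 did not pass, against 15.6% called among all genes tested, with a median log2 change of -0.06. In the loop partners and output factors 1 of 8 tested fell, in the kinases and protein turnover genes 0 of 7, and in the outputs shared by many tissues 1 of 4. These counts use the brightest probe set of each gene. Several dimmer ones of the kinase and turnover genes passed in the fit of all probe sets, where 9.89% of all 45037 passed. The rest did not. There 1417176_at of Csnk1e passed lower (-1.07, limma adjusted p = 0.00943). So did 1415825_s_at (-0.62) and 1449932_at (-0.53) of Csnk1d, 1437001_at of Gsk3b (-0.72) and 1425462_at of Fbxw11 (-0.28), at adjusted p of 0.0176 to 0.0206. Another of Csnk1d, 1456727_a_at, passed higher (0.31, adjusted p = 0.0477). Rora, an activator of Arntl that competes with the REV-ERB receptors, read 9.34, 9.73 and 9.56 in KO and 9.98, 9.88, 9.86 and 10.13 in WT. The groups did not overlap, and the change was -0.42 (adjusted p = 0.0325), which did not pass with any single array left out except KO replicate 2 or WT replicate 2 (adjusted p of 0.0530 to 0.0789). Over its 9 probe sets, 4 passed lower and 1 passed higher, from -1.02 at 1420583_a_at to 0.27 at 1441085_at. Tsc22d3, a glucocorticoid-induced leucine zipper gene, read 9.26, 9.60 and 9.59 in KO and 10.44, 10.07, 9.94 and 10.79 in WT, a change of -0.83 (adjusted p = 0.0276). Leaving out KO replicate 1 (-0.72, adjusted p = 0.0785), KO replicate 3 (-0.88, adjusted p = 0.0647) or WT replicate 1 (-0.78, adjusted p = 0.0688) ended that call. Rora and Tsc22d3 also missed the threshold with either beta-actin covariate (adjusted p of 0.233 to 0.498) and among the 5 mice with the lowest numbers (adjusted p = 0.164 and 0.0826). Rora missed it after quantile normalization (-0.32, adjusted p = 0.0549) and with Xist as a covariate (-0.37, adjusted p = 0.0750), and Tsc22d3 with the mean of its probe sets (-0.28, adjusted p = 0.0639). Both missed it with replicate number as a fixed block on replicates 1 to 3 (adjusted p = 0.114 and 0.0767).

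Bhlhe41, a repressor of the CLOCK and BMAL1 pair, lay under the filter, with means of 5.15 ± 0.06 (SD, n = 3) in KO lungs and 4.86 ± 0.08 (SD, n = 4) in WT lungs. It was higher in KO without overlap in the fit without a filter (log2 change 0.30, adjusted p = 0.0251), and missed the threshold when any array but KO replicate 2 or WT replicate 2 was left out (adjusted p of 0.0532 to 0.0723). The call was also lost with the mean of its probe sets (0.17, adjusted p = 0.0548), with either beta-actin difference (adjusted p = 0.202 and 0.579) or Xist (adjusted p = 0.0677) as a covariate, and among the 5 mice with the lowest numbers (adjusted p = 0.202). With replicate number as a fixed block on replicates 1 to 3, the adjusted p of Bhlhe41 was 0.1355. Among the rest, Tspan4, a tetraspanin, had the lowest change at -0.62 (adjusted p = 0.0696). Leaving out KO replicate 3 gave -0.90 and a pass (adjusted p = 0.0195). Hlf, a PAR bZIP factor like Dbp, was next at -0.41 (adjusted p = 0.103). Rorb, a receptor related to Rora, had 0.21 (adjusted p = 0.115). Usp2, a deubiquitinating enzyme with a clock-driven rhythm, had 0.41 (adjusted p = 0.203). Leaving out KO replicate 1 gave 0.69 and a pass (adjusted p = 0.0289).

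Arntl, Ciart and Tef were picked from the same list after their values were seen. Arntl, the partner of Clock and Npas2, read 7.51, 6.22 and 5.92 in KO and 6.92, 6.35, 6.56 and 6.29 in WT. The highest of the 7 arrays was KO replicate 1 and the lowest KO replicate 3, the reverse of the order in Per2, Per3 and Cry1. The group means, 6.55 ± 0.84 (SD, n = 3) and 6.53 ± 0.28 (SD, n = 4), differed by 0.02 (adjusted p = 0.973), a sign that median centring and cyclic loess turned. Ciart, a further repressor of the CLOCK and BMAL1 pair, read 7.74, 8.37 and 8.58 in KO and 8.50, 8.35, 8.55 and 8.73 in WT, and Tef, a PAR bZIP factor, 10.48, 10.77 and 11.01 against 10.97, 10.91, 10.80 and 11.07. For both, the lowest array was KO replicate 1. Of the 19 other clock genes tested, 5 lay more than 0.5 from the mean of the other KO arrays on KO replicate 1, against 2.28% of all genes: Arntl above it, and Hlf, Ciart, Usp2 and Wee1 below. KO replicate 3 had 5 such genes as well, against 2.54%. WT replicate 1 had 2, WT replicate 4 had 1, and the other 3 arrays had 0.

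**Figure D4:**
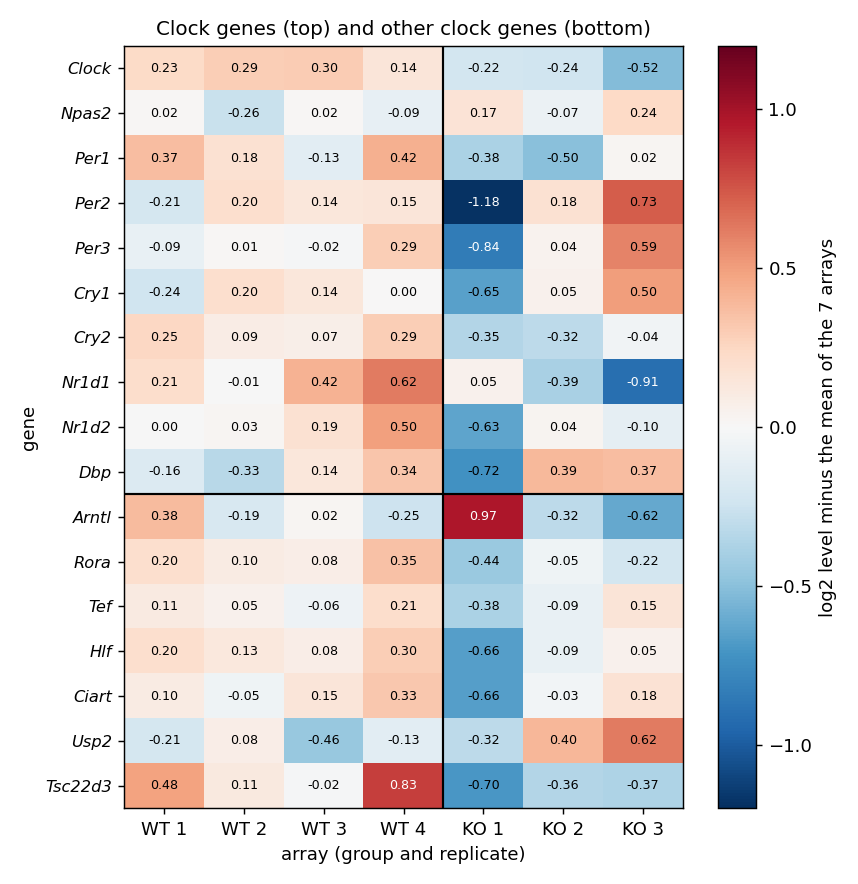
Log2 level minus the mean of the 7 arrays for the 10 clock genes (above the line) and 7 other clock genes (below it), with the 4 WT arrays on the left and the 3 KO arrays on the right. Numbers are the centred log2 values. KO 1 is lowest for Per2 (-1.18), Per3 (-0.84), Cry1, Nr1d2 and Dbp and highest for Arntl (0.97), while KO 3 is highest for Per2 and lowest for Nr1d1 (-0.91).

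The pattern of Clock and of Dbp over the 7 arrays was set against all other genes tested, by the root mean square difference of centred log2 levels. For Clock at 1418659_at the nearest were Vav2 (0.061), Zc3h15 (0.067) and Tinagl1 (0.075), against a median of 0.315 over all genes. Their log2 changes were -0.46, -0.63 and -0.56, which the choice by likeness to Clock brings with it. For Dbp the nearest were Chek1 (0.203), Per3 (0.218) and Hmcn1 (0.219), against a median of 0.409. Their changes were -0.03, -0.12 and 0.19.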

How the data were processed

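The deposited table gives log2 levels of 45101 probe sets on 7 arrays, used as the authors deposited them. Per the submitters' processing notes, Affymetrix Expression Console, RMA and MAS5 were used, without roles or versions, so the method behind the table is unstated, and the log base was taken from the range of values. The 64 control probe sets were set aside. For each of 18193 genes the brightest probe set on average was used, and the 13285 genes at or above the 40th percentile of probe set means (5.47) were tested. The groups were tested by limma 3.58.1 (R 4.3.3), through lmFit and eBayes with genotype as sole term and Benjamini-Hochberg adjustment. A second fit took all 45037 probe sets without a filter. Intervals are at 95%. The fit was tested on simulated arrays. Figures were drawn with matplotlib 3.10.9 (Python 3.11.15).

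Named genes were the 10 clock genes, called genes of the other clock list with the 2 largest and 2 smallest changes beyond them, 3 nearest neighbours each of Clock and Dbp, and Gata5. The members and lists were chosen with earlier results of these data known. The labels do not say whether replicate numbers pair mice. Deviations of same-numbered arrays from their group means correlated at 0.00, -0.04 and 0.04, and those of differently numbered arrays from -0.29 to 0.26. With so few arrays these values cannot show whether mice were paired. Array number limits the precision, and no counting depth applies. Alternatives covered normalization, the filter, how probe sets stand for a gene, array weights, the variance model, covariates, the replicate block, the 5 lowest mouse numbers, and each array left out. A pseudocount was not applied, the values being logs.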

Additional observations from a re-analysis of the deposited data

Results flagged for a closer look

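At the brightest Per2 probe set, 1417602_at, WT replicate 1 stood apart from the other WT arrays, at 9.31 against 9.66 to 9.72. Its gap to the nearest of them was 0.854 of the range of the 4 WT arrays, above Dixon's critical value at 95% for 4 samples. Of 34 values examined in the WT group, 1 was past that limit, and chance alone passes about 1 in 20. The KO group of 3 is too small for the same rule, so the distance of KO replicate 1 was not examined in this way.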

How the results depend on the processing

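Between 1 and 3 of the clock genes and between 1 and 3 of their probe sets passed when single arrays were left out, against 2 with all arrays. Over all genes those counts ran from 884 to 1976 against 2069, and over all probe sets from 1974 to 4251 against 4456. The activator minus repressor difference, 0.11 with all arrays, ran from -0.14 to 0.28. It was 0.34 with the mean of all probe sets, 0.030 after quantile normalization, 0.043 after cyclic loess and 0.023 in the 5 mice with the lowest numbers. With limma, 0 clock genes passed with the beta-actin 3′ to 5′ difference as a covariate (1 at unadjusted p under 0.05), 0 with the 3′ to middle difference (2) and 0 among the 5 mice with the lowest numbers (3). For all genes these settings gave 0, 0 and 0 calls (2204, 1742 and 2793 at unadjusted p under 0.05), and for all probe sets 0, 1 and 0. Clock probe sets passing numbered 0, 0 and 0 (3, 2 and 3 unadjusted). The 3′ to middle covariate was added with results known. The Xist level as a covariate left 1 clock gene, 1 probe set, 935 genes and 2078 probe sets. The replicate number as a fixed block on replicates 1 to 3 left 1, 1, 367 and 1322 in the same order, and a random replicate block changed no count by over 1.5 times. Averaging a gene's probe sets left 1 clock gene, Cry2. Quantile normalization and cyclic loess left 1 probe set each. Of all called genes 35.7% were higher in KO as deposited, 57.1% after quantile normalization, 24.6% after median centring and 46.8% after cyclic loess.

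Signs turned under several settings, for genes near 0 and also for Nr1d1 and Usp2, and the cause was not tested. With the 3′ to 5′ covariate Dbp was at -0.52 in both fits, 1417603_at at 0.15 and 1441445_at at -0.0025. With the 3′ to middle covariate Dbp was at -0.25, Nr1d1 at 0.24, Usp2 at -0.17, 1418660_at at 0.38, 1441445_at at -0.16 and 1416959_at at -0.0070. Array weights put Dbp at -0.16 by gene and -0.098 by probe set, and median centring at -0.016. Means over probe sets put Dbp at -0.22 and Per3 at 0.076. Quantile normalization put Cry1 at 0.019, 1416959_at at -0.040 and 1460662_at at -0.011, and cyclic loess put the last 2 at -0.032 and -0.0096. Arntl was at -0.012 after median centring, -0.013 after cyclic loess, -0.056 with Xist, -0.060 with the fixed replicate block and -0.085 in the 5 mice, where 1457350_at was at 0.030.

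With single arrays left out, ranges that crossed 0 were -0.57 to 0.39 for Per2, -0.45 to 0.27 for Per3, -0.33 to 0.25 for Cry1, -0.17 to 0.38 for Dbp and -0.46 to 0.34 for Arntl. Among the other probe sets they were -0.01 to 0.07 (1416959_at), -0.09 to 0.03 (1417603_at), -0.25 to 0.08 (1418660_at), -0.093 to 0.14 (1435775_at), -0.42 to 0.34 (1457350_at), -0.33 to 0.055 (1458176_at) and -0.015 to 0.11 (1460662_at). Probe sets near 4 to 5 lie in the range where most dim probe sets sit, which limits what their changes show.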
